A study of Mus musculus with 9 samples.

Results

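The matrix proteases, cathepsins and inhibitors described here were 9 genes, Mmp14, Plau, Plaur, Timp1, Timp2, Timp3, Ctse, Ctsl and Ctsd, read from every probe set of the array that the platform annotation assigns to 1 of them. They are 9 of 8251 genes named on the array and 14 of its 12422 probe sets, and 10 of the 14 were measured above the floor of 197 normalized intensity units on at least 2 of the 9 arrays and were tested. RNA came from mouse prostate epithelial cell lines in 4 groups: Rb-/- cells kept for 48 hours in RPMI-1640 without fetal bovine serum (2 arrays), Rb-/- cells in RPMI-1640 with 5% fetal bovine serum (2 arrays), and wild-type cells in the serum-free (2 arrays) and the serum-containing medium (3 arrays). The Rb-/- line, called Rb-null below, lacks the retinoblastoma gene Rb1. Each genotype is a single line in the labels, which leave unsaid whether repeat arrays were separate cultures, so a difference between genotypes is a difference between these lines and p-values measure the spread between arrays, which may be technical. In these bulk samples, fewer cells of a type and less RNA per cell cannot be told apart.

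Secreted and membrane-bound proteases cut the extracellular matrix around epithelial cells. Mmp14 is a membrane-anchored matrix metalloproteinase that cleaves collagen and activates the gelatinase Mmp2, and the TIMP proteins bind metalloproteinases and block them. Plau, urokinase, converts plasminogen to plasmin on cells that carry its receptor Plaur. Cathepsins work mainly in lysosomes and endosomes: Ctsl is a cysteine protease, Ctsd and Ctse are aspartic proteases, and Ctsd and Ctsl can also be secreted as proenzymes.

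Rb1, the deleted gene, was checked in every array. Its brighter probe set had normalized intensities of 171 and 167 in Rb-null serum-free and 114 and 109.5 in Rb-null serum arrays, all under the floor, against 386 and 370.4 in wild-type serum-free and 714, 398 and 368 in wild-type serum arrays. It was at least 2.15-fold lower in Rb-null cells (limma adjusted p = 0.000923), and a second Rb1 probe set stayed below the floor on all 9 arrays. Whether the probes lie in the deleted stretch was not checked. The luminal keratins Krt8 (7821 to 10465), Krt18 (6269.9 to 8616) and Krt19 (9585 to 12815) were bright, while the basal keratins Krt5 (546 to 731) and Krt14 (205 to 232) were dim, Krt14 barely over the floor. The summed intensity of 9 prostate epithelium markers, all above the floor and carried mostly by the luminal keratins, ran from 30572 to 34642 in Rb-null and from 30090 to 34688 in wild-type arrays. Of 12 macrophage and leukocyte markers, 7 were above the floor on at least 2 arrays, with sums of 4104 to 4295 in Rb-null and 3852 to 4614 in wild-type arrays, and Ptprc, Lyz2, Itgb2, Tyrobp and Cd53 stayed below it throughout. Of 10 fibroblast markers, 6 were above the floor (sums of 3850.3 to 4036 and 3728 to 4677), and Vim, Lum and Pdgfrb stayed below it on every array. Endothelial markers had 5 of 7 above the floor, 2 of these lower past the threshold in the Rb-null line with both media averaged. Their sums were 2366 to 2444 in Rb-null and 2435 to 2834 in wild-type arrays. By the same measure 1 epithelial marker was higher, and 1 macrophage and leukocyte and 1 fibroblast marker were lower. Over all probe sets tested 21.8% were higher and 23.4% lower. Smooth muscle markers had 4 of 7 above the floor, 3 of these lower past the threshold in the Rb-null line. Their sums were 6139 to 6579 in Rb-null against 9037 to 10586 in wild-type arrays, carried mostly by Actg2 (3812 to 6715). The Actg2 probe set carries the suffix for a sequence family, so its probes can hybridise to related sequences. Acta2, Myh11 and Cnn1 stayed below the floor throughout. The part of these markers in the results below was not tested. Of the wild-type serum arrays, number 1 was the least like its group, with rank correlations of 0.974 and 0.969 to the others against 0.995 between them, so results are also given without it where that changes them.

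The genotype comparison asked how the Rb-null line differed from the wild-type line. With both media averaged, 4 of the 10 tested probe sets were higher in Rb-null cells (Timp3, Ctsl and 2 probe sets annotated to Ctse), 3 were lower (Mmp14, Timp2 and Ctsd), and Plau, Plaur and Timp1 did not pass. The 7 that passed stand for 6 annotated genes. Timp3 was above the floor only on Rb-null arrays, so it entered the test, and these counts, through the line where it was high. The 2 annotated to Ctse share 1 source accession, so they are not independent in the counts and medians here, and they may not measure Ctse. The test was limma's moderated test with Benjamini-Hochberg adjustment over all 9686 tested probe sets, and the threshold was an adjusted p of 0.05. Over all of them 45.2% passed, 21.8% higher and 23.4% lower, and 5 of the 10 did not overlap between the lines, as did 23.1% of all. The same 7 probe sets passed in each medium, in the same directions. In serum-free medium 30.7% of all probe sets passed (16.8% higher, 13.9% lower), and 9 of the 10 did not overlap between the lines against 74.3% of all. In serum 23.6% passed (13.2% higher, 10.4% lower), and 7 of the 10 did not overlap against 49.5% of all. The median of the 10 averaged log2 differences was -0.12, against -0.05 over all probe sets tested. Of the called probe sets over the whole array 48.1% were higher, against 69.3% in the values as deposited and 60.7% after scaling to a common median, while the 7 calls in the averaged difference kept their directions under each. The same shares were 54.8%, 77.6% and 68.1% in serum-free medium and 55.9%, 73.4% and 68.0% in serum. Without wild-type serum 1 they were 43.0% on average, 45.4% in serum-free medium and 47.8% in serum.

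**Figure D1:**
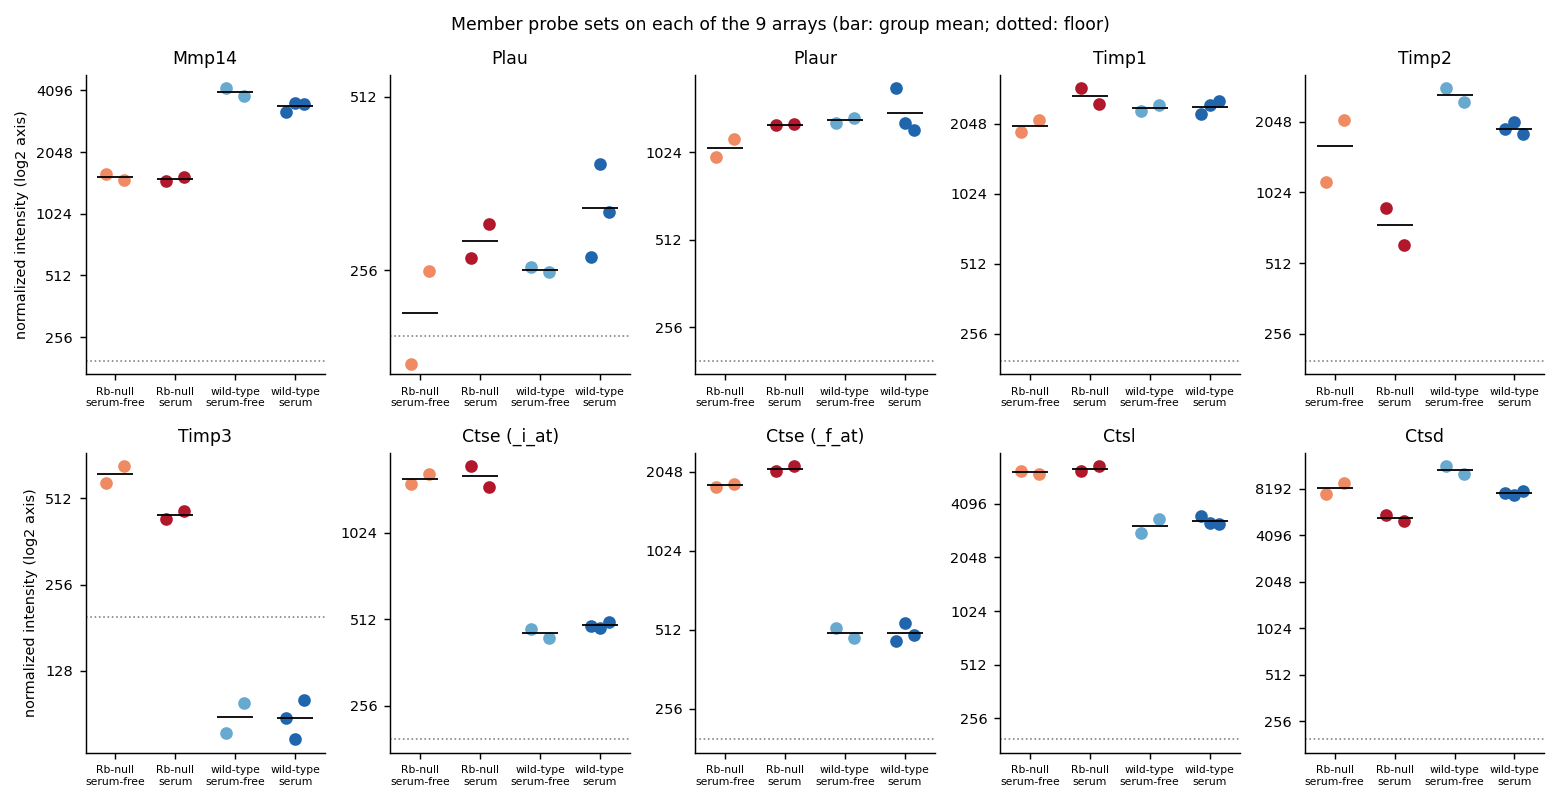
Normalized intensity on a log2 axis for the 10 tested probe sets on each array, 1 panel per probe set, with Rb-null groups left of wild-type groups. Points are arrays, bars are group means and the dotted line is the floor of 197: Mmp14 and Ctsl split by line with no overlap, every wild-type Timp3 point lies under the floor, and Ctsd differs by both line and medium.

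Mmp14 was lower in the Rb-null line in both media. Its probe set read 1599 and 1497 on Rb-null serum-free and 1472 and 1550.3 on Rb-null serum arrays, against 4198 and 3847 on wild-type serum-free and 3217, 3549.6 and 3527 on wild-type serum arrays. Every Rb-null array lay below every wild-type array. The log2 difference was -1.28 on average (SE 0.06, limma adjusted p = 3.04e-07), -1.38 in serum-free medium (SE 0.08, adjusted p = 5.89e-06) and -1.18 in serum (SE 0.08, adjusted p = 8.96e-06), or 2.43-fold lower on average.

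Timp3, the TIMP that binds to the matrix rather than staying soluble, was higher in the Rb-null line. It read 578 and 661 on Rb-null serum-free and 432 and 460.3 on Rb-null serum arrays. All 5 wild-type arrays lay below the floor, at 77.7 and 98.7 without serum and at 87.4, 74.1 and 101 in serum, so no order among them can be read. The fold is therefore a lower bound: Timp3 was at least 2.67-fold higher on average (log2 1.42, SE 0.05, limma adjusted p = 1.55e-07), at least 3.14-fold in serum-free medium (adjusted p = 1.99e-06) and at least 2.27-fold in serum (adjusted p = 7.71e-06). The floored wild-type values have no spread, so these SEs understate the error. Timp3 was above the floor on the 4 Rb-null arrays only and met the filter through them alone. Its p-values are therefore not independent of the filter.

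Timp2, a soluble TIMP that also takes part in Mmp2 activation by Mmp14, went the other way. Its tested probe set read 1137 and 2090.1 on Rb-null serum-free and 879 and 610.2 on Rb-null serum arrays, against 2848 and 2494 on wild-type serum-free and 1904, 2035 and 1807 on wild-type serum arrays. Within each medium the lines did not overlap, but Rb-null serum-free 2 lay above every wild-type serum array. The log2 difference was -1.39 in serum (SE 0.23, limma adjusted p = 0.00286) and -0.79 in serum-free medium (SE 0.26, adjusted p = 0.0438), with an average of -1.09 (SE 0.17, adjusted p = 0.00106). Leaving out any 1 of 7 arrays, every one but wild-type serum 1 and Rb-null serum-free 2, ended the call in serum-free medium (adjusted p up to 0.283, and a difference of -0.35 without Rb-null serum-free 1). The serum call was lost without Rb-null serum 2 (adjusted p = 0.0555). Another 2 probe sets of Timp2 stayed below the floor on every array, between 94.8 and 134.

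Timp1, the inducible soluble TIMP, did not differ past the threshold. Its means were 2007 ± 176 in Rb-null serum-free and 2707 ± 292 in Rb-null serum (SD, n = 2 each), against 2401 ± 94.4 in wild-type serum-free (SD, n = 2) and 2428 ± 161 in wild-type serum cells (SD, n = 3). The average log2 difference was -0.05 with a 95% interval of -0.21 to 0.10 (limma adjusted p = 0.556). By medium it was -0.26 without serum (adjusted p = 0.0816, and 0.0344 without wild-type serum 1) and 0.15 in serum (adjusted p = 0.277). In serum Timp1 passed as higher in the values as deposited (0.33, adjusted p = 0.0278) and with a common median (0.30, adjusted p = 0.0458). A second Timp1 probe set stayed between 15.4 and 45.5, far below the floor. The 3 tested TIMP genes thus showed 1 higher, 1 lower and 1 that did not pass.

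The urokinase pair did not pass in either medium. Plau read 176 and 256 on Rb-null serum-free and 269 and 308 on Rb-null serum arrays, against 259 and 254 on wild-type serum-free and 269.5, 392 and 323 on wild-type serum arrays. These values lie close to the floor, and Rb-null serum-free 1 lies under it. The average log2 difference was -0.18 (SE 0.12, 95% interval -0.45 to 0.08, limma adjusted p = 0.218). Plaur read 987 and 1136 on Rb-null serum-free and 1268 and 1276 on Rb-null serum arrays, against 1293 and 1346 on wild-type serum-free and 1702, 1288 and 1217 on wild-type serum arrays. Its average difference was -0.22 (SE 0.10, 95% interval -0.45 to 0.01, adjusted p = 0.102). Wild-type serum 1 read the highest of its group for Plaur and the lowest for Plau, where the 3 arrays were spread widely. Without it both passed as lower, Plau at -0.25 (adjusted p = 0.0430) and Plaur at -0.15 (adjusted p = 0.0447). Plaur also passed in serum-free medium, at -0.32 (adjusted p = 0.00980). Over all 9686 probe sets 6058 then passed in the averaged difference, against 4377 with that array. In serum-free medium 4964 passed, against 2971.

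Ctsl was higher in the Rb-null line. It read 6242 and 6028 on Rb-null serum-free and 6196 and 6609 on Rb-null serum arrays, against 2818 and 3348 on wild-type serum-free and 3475, 3181 and 3129.9 on wild-type serum arrays. Every Rb-null array lay above every wild-type array. The log2 difference was 1.00 in serum-free medium (SE 0.09, limma adjusted p = 9.30e-05) and 0.97 in serum (SE 0.08, adjusted p = 5.35e-05), or 1.98-fold on average (adjusted p = 3.80e-06).

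Ctsd was lower in the Rb-null line within each medium. It read 7588 and 8970.5 on Rb-null serum-free and 5558 and 5068 on Rb-null serum arrays, against 11400.4 and 10175 on wild-type serum-free and 7661, 7444 and 7869.6 on wild-type serum arrays. Rb-null cells without serum overlapped the range of wild-type cells in serum. The log2 difference was -0.38 in serum-free medium (SE 0.09, limma adjusted p = 0.0117), -0.53 in serum (SE 0.08, adjusted p = 0.00171) and -0.46 on average (SE 0.06, adjusted p = 0.000366). Without serum the call ended when wild-type serum-free 1 was left out (adjusted p = 0.107) or Rb-null serum-free 1 (adjusted p = 0.0935).

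The 3 probe sets annotated to Ctse did not read alike. The probe set with suffix _f_at was 3.94-fold higher on average (log2 1.98, SE 0.07, limma adjusted p = 9.81e-08), with 1801 and 1847 on Rb-null serum-free and 2070.3 and 2149 on Rb-null serum arrays, against 519 and 476 on wild-type serum-free and 465, 545.5 and 488 on wild-type serum arrays. The probe set with suffix _i_at was 3.36-fold higher (log2 1.75, SE 0.07, adjusted p = 2.05e-07), with group means of 1571 ± 88.0 and 1607 ± 183 in Rb-null cells without and with serum against 457 ± 23.7 and 488 ± 11.6 in wild-type cells (SD, n = 2, and n = 3 for wild-type serum). The lines did not overlap on either. The third stayed between 94.0 and 119.7 on all 9 arrays, below the floor in both lines. The pair that differed shares 1 source accession in the annotation and carries the suffixes for a sequence family and for an incomplete probe set, so its probes can hybridise to related sequences, while the dim probe set comes from another accession. Which transcript the shared accession represents is not settled by the sources used here, and it may be an endogenous retroviral sequence rather than Ctse. The values of this pair are therefore those of probe sets annotated to Ctse, not a measure of Ctse itself.

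**Figure D2:**
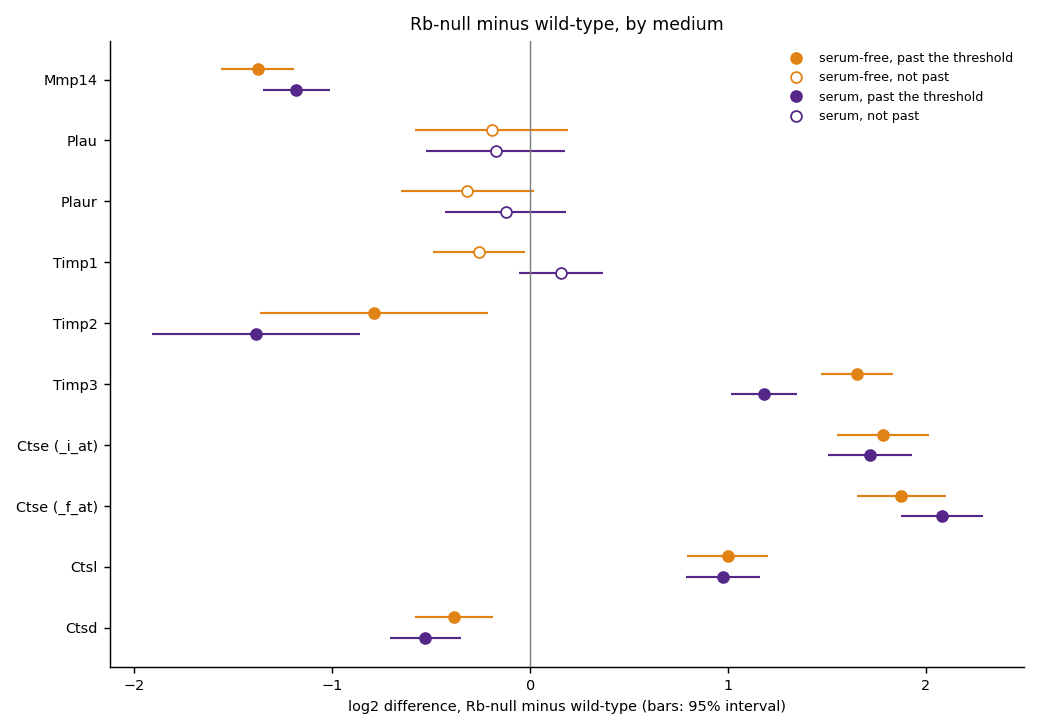
Log2 difference, Rb-null minus wild-type, for the 10 tested probe sets in serum-free medium (orange) and in serum (purple). Points are fitted differences, bars 95% intervals and filled points passed the threshold: Mmp14, Timp2 and Ctsd lie below 0 and Timp3, Ctsl and the 2 probe sets annotated to Ctse above it in both media, with the Timp3 values being lower bounds.

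Promoter sequence is given for Mmp14 and Timp3, the metalloproteinase and the inhibitor that differed in opposite directions between the lines, and for Ctsd, the member that differed by medium in both lines. Each run is the 250 bases before the gene's start in RefSeq (GRCm38.p6), written 5′ to 3′ on the gene's strand, with matches to the E-box CACGTG in capitals.
Mmp14, chr14:54431348-54431597 (plus strand): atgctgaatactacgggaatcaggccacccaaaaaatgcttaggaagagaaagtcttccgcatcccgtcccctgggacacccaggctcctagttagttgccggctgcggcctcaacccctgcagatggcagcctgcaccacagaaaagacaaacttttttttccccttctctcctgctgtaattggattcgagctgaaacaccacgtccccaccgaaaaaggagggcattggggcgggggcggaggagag
Timp3, chr10:86300162-86300411 (plus strand): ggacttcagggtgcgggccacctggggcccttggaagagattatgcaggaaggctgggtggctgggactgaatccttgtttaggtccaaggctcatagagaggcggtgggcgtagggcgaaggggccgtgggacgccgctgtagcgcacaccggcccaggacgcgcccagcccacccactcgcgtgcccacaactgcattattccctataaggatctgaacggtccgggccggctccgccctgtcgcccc
Ctsd, chr7:142387828-142388077 (minus strand): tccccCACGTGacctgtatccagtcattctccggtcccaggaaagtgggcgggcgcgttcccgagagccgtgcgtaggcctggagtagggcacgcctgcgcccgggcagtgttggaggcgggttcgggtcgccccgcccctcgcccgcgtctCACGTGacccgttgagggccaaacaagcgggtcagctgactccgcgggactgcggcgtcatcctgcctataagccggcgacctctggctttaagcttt
The AP-1 site (TGACTCA or TGAGTCA) and the E-box were searched on both strands. The Ctsd run held 2 E-box matches, at positions -245 to -240 and -98 to -93 from the start, and no AP-1 match. The Mmp14 and Timp3 runs held neither. Among 32851 promoter windows of that length 6.02% held an E-box and 4.46% an AP-1 site. Promoter entries were at hand for 7 of the 9 genes. Of the others, the Ctsl window held 1 E-box, the Plaur window held 1 AP-1 match, and the Timp1 and Timp2 windows held neither. The GC share was 55.2% for Mmp14, 65.6% for Timp3 and 67.2% for Ctsd.

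Serum withdrawal asked how each line responded to 48 hours without serum. In Rb-null cells 4 of the 10 probe sets passed, against 13.9% of all probe sets: Ctsd, Timp2 and Timp3 rose and Timp1 fell. In wild-type cells 1 passed, Ctsd, against 15.9% of all probe sets. Of all the wild-type calls 41.7% were higher, against 25.7% in the values as deposited, and of the Rb-null calls 53.9%, against 44.4% as deposited and 43.0% without Rb-null serum 2. Serum-free and serum arrays did not overlap for 7 of the 10 in Rb-null cells, against 56.0% of all, and for 5 in wild-type cells, against 44.2% of all. The median log2 difference of the 10 was -0.04 in Rb-null and -0.01 in wild-type cells, against 0.00 and 0.05 over all probe sets. Mmp14, Plau, Plaur, Ctsl and both tested Ctse probe sets did not pass in either line.

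Ctsd averaged 8279 ± 977 without serum and 5313 ± 346 with serum in Rb-null cells (SD, n = 2 each), a log2 difference of 0.64 (SE 0.09, limma adjusted p = 0.00157). In wild-type cells it averaged 10788 ± 867 without serum (SD, n = 2) and 7658 ± 213 with serum (SD, n = 3), a difference of 0.49 (SE 0.08, adjusted p = 0.00306). In both lines every serum-free array lay above every serum array. The wild-type call was lost without wild-type serum-free 1 (adjusted p = 0.0553).

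Each of the 3 TIMP genes passed on withdrawal in Rb-null cells, in both directions. In Rb-null cells Timp2 averaged 1613 ± 674 without serum against 745 ± 190.0 with serum (SD, n = 2 each), a log2 difference of 1.07 (SE 0.26, limma adjusted p = 0.0216). Leaving out wild-type serum-free 1 or 2, Rb-null serum 2 or Rb-null serum-free 2 ended that call, with adjusted p up to 0.220, and the difference was 0.63 without Rb-null serum-free 2. Timp3 averaged 619.6 ± 58.2 against 446 ± 19.9 (SD, n = 2 each), a difference of 0.47 (SE 0.08, adjusted p = 0.00451) that held without any single array. Its floored wild-type values have no spread and enter the spread that all groups share. The SE of Timp3 thus understates the error, and its call looks firmer than the Rb-null arrays alone would make it. Timp1 fell to 2007 ± 176 without serum, against 2707 ± 292 with serum (SD, n = 2 each), a difference of -0.43 (SE 0.10, adjusted p = 0.0221) that was lost without Rb-null serum 1 or Rb-null serum-free 1. In wild-type cells Timp2 stood at 0.48 (SE 0.23, adjusted p = 0.222) and Timp1 at -0.02 (SE 0.09, adjusted p = 0.935), and Timp3 lay below the floor in both media.

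Mmp14 stood at 0.03 in Rb-null cells (95% interval -0.15 to 0.22, limma adjusted p = 0.904) and at 0.23 in wild-type cells (95% interval 0.06 to 0.40, adjusted p = 0.0726), where the serum-free arrays lay above the serum arrays. Plau stood at -0.36 (SE 0.17, adjusted p = 0.246) in Rb-null and -0.34 (SE 0.16, adjusted p = 0.197) in wild-type cells, and the wild-type value passed without wild-type serum 1 (-0.47, adjusted p = 0.0372). Plaur stood at -0.27 (SE 0.15, adjusted p = 0.342) in Rb-null cells, a value that passed without wild-type serum 1 (adjusted p = 0.0401), and at -0.07 (SE 0.14) in wild-type cells. Without that array 2257 of all probe sets passed in Rb-null and 1943 in wild-type cells, against 1348 and 1536 with it. Ctsl stood at -0.06 (95% interval -0.26 to 0.14) and -0.09 (95% interval -0.27 to 0.10).

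**Figure D3:**
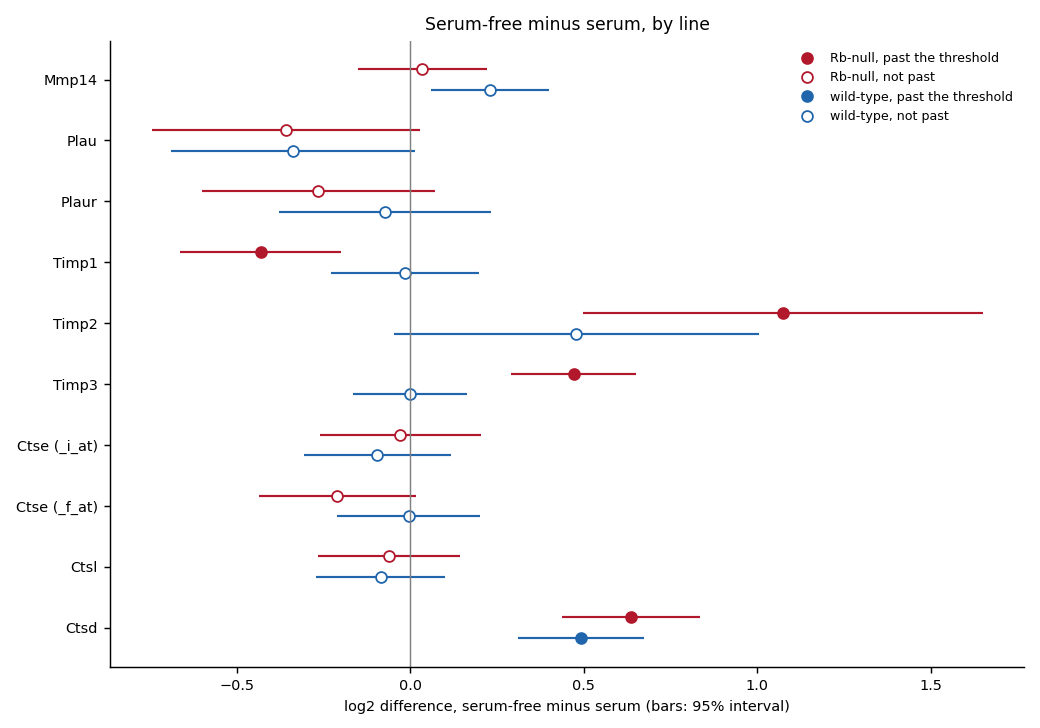
Log2 difference, serum-free minus serum, for the 10 tested probe sets in Rb-null (red) and wild-type cells (blue). Points are fitted differences, bars 95% intervals and filled points passed the threshold: Ctsd lies above 0 in both lines, and Timp1, Timp2 and Timp3 passed in Rb-null cells, with wild-type Timp3 held at 0 by the floor.

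Whether the lines responded differently was tested as an interaction, withdrawal in Rb-null minus withdrawal in wild-type cells. None of the 10 probe sets passed in limma's test, and 90 of all probe sets did (0.929%). At an unadjusted p under 0.05 there were 2 of the 10, against 10.9% of all probe sets: Timp3 at 0.47 (SE 0.11, adjusted p = 0.114), where the wild-type side was set by the floor, and Timp1 at -0.42 (SE 0.14, adjusted p = 0.289). The TIMP calls in Rb-null cells are therefore not shown to be particular to that line. Timp2 had the widest interval, 0.60 with a 95% interval of -0.19 to 1.38, and Ctsl stood at 0.02 (95% interval -0.25 to 0.30).

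Other genes of the same systems were read from lists, with each gene represented by its brightest tested probe set. Of 18 measured metalloproteinase, ADAM and convertase genes 1 was higher and 4 lower in the averaged difference between the lines, with a median of -0.10. The lower count was 2 in the values as deposited and 8 without wild-type serum 1. Over all probe sets 21.8% were higher and 23.4% lower, the background for each list here. The higher was Adam10, a membrane sheddase, at 1.30 (SE 0.14, limma adjusted p = 0.000102). The procollagen C-proteinase Bmp1 stood at -0.36, the convertase Pcsk6 at -0.33 (lost without wild-type serum-free 1, Rb-null serum 2 or Rb-null serum-free 1, and as deposited, adjusted p = 0.0834) and Adam15 at -0.25, all lower past the threshold. Of 16 plasminogen and serine protease genes 1 was higher and 7 lower (median -0.08), with 3 and 6 in the values as deposited, 2 and 7 with a common median and 3 and 8 without wild-type serum 1. Among the lower were the tissue plasminogen activator Plat at -0.42 (SE 0.07, adjusted p = 0.00137), tissue factor F3 at -0.69, the protein C receptor Procr at -0.39 and the annexin partner S100a10 at -0.28 (not past the threshold as deposited, adjusted p = 0.0809). Of 13 other protease inhibitors 2 were higher and 4 lower (median -0.08). Serpinb9, an inhibitor of granzyme B, stood at -1.75 (SE 0.06, adjusted p = 7.82e-08), the whey acidic protein Wfdc2 at -1.14 and Reck, a membrane-anchored inhibitor of metalloproteinases, at -0.29 (SE 0.05, adjusted p = 0.000890), while Serpinb6a stood at 0.67.

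Of 13 other cathepsin and cystatin genes 4 were higher and 4 lower in the same comparison (median -0.03), but 5 and 2 in the values as deposited (median 0.13) and 5 and 3 with a common median (0.09). Ctsh, an aminopeptidase, stood at 1.13 (SE 0.07, limma adjusted p = 5.06e-06) and the dipeptidyl peptidase Ctsc at 0.74 (SE 0.14, adjusted p = 0.00307), while Ctsz stood at -0.74 (SE 0.11, adjusted p = 0.000908) and the secreted cathepsin inhibitor Cst3 at -0.32, a call lost under both other scalings (adjusted p = 0.264 as deposited and 0.161 with a common median). Of 21 other lysosome genes 6 were higher and 4 lower (median -0.03), but 8 and 1 in the values as deposited (median 0.14) and 7 and 2 with a common median (0.11). Among them stood the membrane proteins Lamp2 at 0.55 and Cd63 at 0.54, the enzyme Gusb at 0.78 and the mannose 6-phosphate receptor Igf2r, which carries enzymes to lysosomes, at 0.65. Of 23 matrix genes 7 were higher and 6 lower (median -0.02), with 9 and 4 in the values as deposited (median 0.03). Tenascin C (Tnc) was at least 3.21-fold higher, with every wild-type array at the floor, the syndecan Sdc1 stood at 1.40 and the laminin chain Lamb3 at 0.56, while the collagen Col18a1 stood at -0.52. All list genes named with a value here passed the threshold under quantile normalization.

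**Figure D4:**
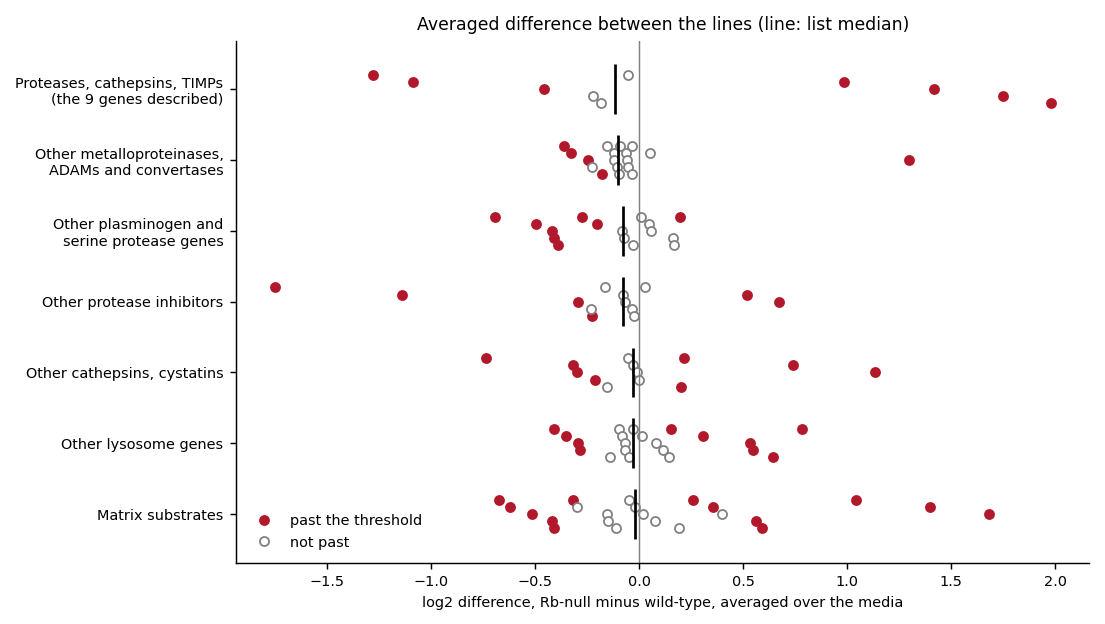
Log2 difference between the lines, Rb-null minus wild-type, averaged over the media, for the 10 member probe sets and 6 lists of related genes. Each point is 1 probe set, red where it passed the threshold, and the black line is the median. The median lies between -0.12 and -0.02 in every row under quantile normalization. In the values as deposited it is above 0 for the cathepsin, lysosome and matrix lists among the 6 lists.

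On withdrawal, several cathepsin and lysosome genes moved with Ctsd. In Rb-null cells 3 of 13 other cathepsin and cystatin genes rose and 1 fell, and 5 of 21 lysosome genes rose and 1 fell. In wild-type cells 4 and 4 rose and 0 fell. Most genes of both lists did not pass, 9 and 15 in Rb-null and 9 and 17 in wild-type cells. In the values as deposited 2 and 3 rose in Rb-null and 3 and 2 in wild-type cells, and with a common median 2 and 3 in Rb-null and 3 and 3 in wild-type cells. Without wild-type serum 1 the Rb-null counts were 5 and 6, with the list medians unchanged at 0.04 and 0.16. Calls over all probe sets in Rb-null withdrawal then rose from 1348 to 2257, with 53.7% of them higher. With all 9 arrays and quantile normalization the background was 7.50% higher and 6.42% lower in Rb-null and 6.61% higher and 9.25% lower in wild-type cells. Of all calls as deposited, 44.4% were higher in Rb-null and 25.7% in wild-type cells. The protective protein Ctsa stood at 1.04 in Rb-null (SE 0.12, limma adjusted p = 0.000494) and 0.63 in wild-type cells, and the tripeptidyl peptidase Tpp1 at 0.92 (SE 0.14, adjusted p = 0.00300) and 0.45. Psap, the precursor of the saposins, stood at 0.42 and 0.30, the proton pump subunit Atp6v0d1 at 0.59 and 0.35, the sterol transfer protein Npc2 at 0.40 and 0.42 and the membrane protein Lamp1 at 0.31 and 0.36, in Rb-null and wild-type cells, all past the threshold under quantile normalization. As deposited, the wild-type calls of Tpp1 (adjusted p = 0.214), Psap (0.0778) and Atp6v0d1 (0.107) and the Rb-null call of Lamp1 (0.208) were lost with their directions kept, and with a common median those of Tpp1, Atp6v0d1 and Lamp1 were. The wild-type call of Tpp1 was lost without any 1 of 8 arrays, every one but wild-type serum 1. Those of Ctsa and Atp6v0d1 were lost without wild-type serum-free 2 and that of Psap without wild-type serum-free 1. In Rb-null cells Npc2 was lost without either Rb-null serum array, and Lamp1 without either of these or Rb-null serum-free 1. Ctsf rose in wild-type cells (0.46, adjusted p = 0.00258). Ctsh also rose in wild-type cells (0.68, limma adjusted p = 0.00166) but stood at -0.17 in Rb-null cells, where it did not pass (adjusted p = 0.426). Of 27 measured genes on these lists with a promoter entry 8 held an E-box match in at least 1 window (Atp6v1a, Ctsa, Ctsf, Gaa, Glb1, Igf2r, Lamp1 and Lgmn), against 6.86% of all genes. The 27 were counted whether or not they rose on withdrawal, and a link between the E-box and withdrawal was not tested.

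**Figure D5:**
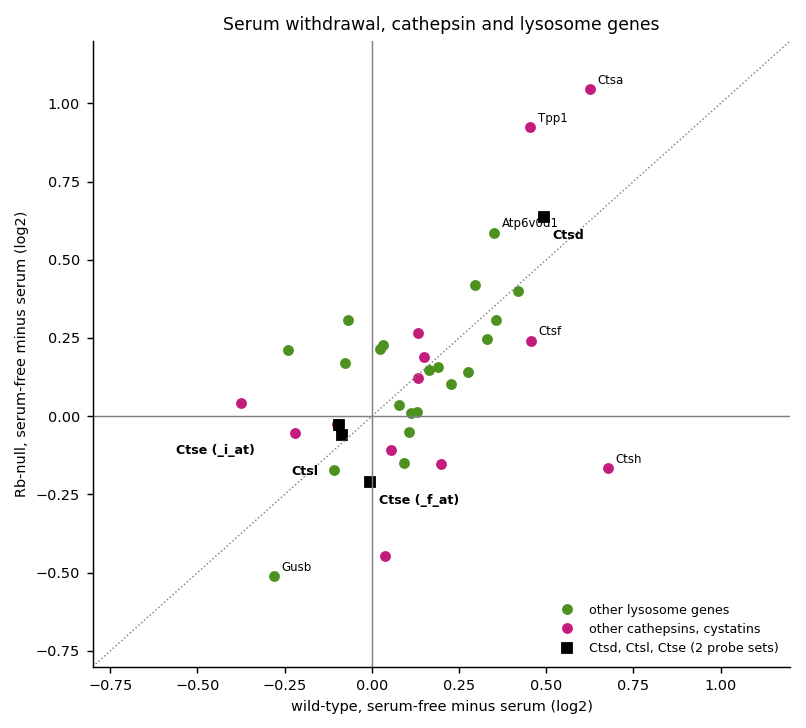
Log2 difference on serum withdrawal in wild-type cells (horizontal) against Rb-null cells (vertical) for cathepsin, cystatin and lysosome genes. Each point is 1 gene or probe set and the dotted line marks equal response: Ctsd lies at 0.49 and 0.64 beside Ctsa and Tpp1, while Ctsl and the 2 Ctse probe sets lie near 0 on the horizontal axis.

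Among the other lists, the sheddase Adam9 fell by 0.96 on the log2 scale in wild-type cells (adjusted p = 0.00201) and the metalloproteinase inducer Bsg rose by 0.29 in Rb-null cells (adjusted p = 0.0301, lost without any 1 of the 6 arrays other than the wild-type serum arrays, and under both other scalings). The secreted serine protease Htra1 rose in both lines, by 0.34 in Rb-null (adjusted p = 0.00629) and 0.47 in wild-type cells (adjusted p = 0.000600), and so did Spint1, an inhibitor of membrane serine proteases, by 0.50 and 0.72. The membrane serine protease Tmprss2 also rose in both, by 0.56 in Rb-null (adjusted p = 0.00807) and 0.72 in wild-type cells (adjusted p = 0.00121). Anxa2, a plasminogen-binding annexin, fell by 0.26 in Rb-null cells (adjusted p = 0.00555). Of 23 matrix genes 2 rose and 3 fell in Rb-null cells, and 3 rose and 2 fell in wild-type cells. The collagen Col18a1 rose by 0.73 in wild-type cells (limma adjusted p = 0.000260) and by 0.37 in Rb-null cells (adjusted p = 0.0188). Its Rb-null call was lost as deposited (adjusted p = 0.0928) and with a common median (0.0661). The basement membrane collagen Col4a1 fell in both lines, by 0.63 in Rb-null and by 0.93 in wild-type cells. In Rb-null cells the calls of Htra1, Anxa2, Col4a1 and Col18a1 were lost without Rb-null serum 2. Those of Col4a1 and Col18a1 were also lost without Rb-null serum-free 2. That of Tmprss2 was lost without either Rb-null serum array or Rb-null serum-free 1. That of Spint1 was lost without any 1 of the 4 Rb-null arrays. The Rb-null call of Htra1 was also lost as deposited (adjusted p = 0.122) and with a common median (0.0826). Tnc fell by 2.08 in Rb-null cells (limma adjusted p = 6.31e-07), to a mean of 307 without serum, against 1297 with serum. Its wild-type values were all held at the floor and have no spread, so this p-value understates the error.

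The genes whose pattern over the 9 arrays was most like each called member were found by Pearson correlation of normalized log2 values, given as a description, since the arrays fall into 4 groups and every gene shares them. Mmp14 was most like the keratin Krt20 (r = 0.996) and Bmp1 (r = 0.994), Timp3 most like Ifi204 (r = 0.999) and Mdfic (r = 0.998), and Ctsl most like Med10 (r = 0.995) and Rad17 (r = 0.994). The wild-type Timp3 values were all held at the floor, so its correlations rest on the line difference and the Rb-null arrays alone. Timp2 was most like Vps72 and Dtx2 (r = 0.983 and 0.982), Ctsd most like Rps18 and Eef2k (r = 0.978 and 0.974) and Timp1 most like Plac1 and Tpst1 (r = 0.954 and 0.939). The Ctse probe set _i_at was most like Erdr1 (r = 0.995) and Cd200 (r = 0.992), and the one with suffix _f_at most like Cd200 (r = 0.996) and Lgals1 (r = 0.995). No member was among the closest 2 of another member.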

How the data were processed

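The authors deposited linear intensity values for 9 single-channel arrays, 1 value for each probe set. How these intensities were summarised and scaled are steps not given in the sources used here. Upper quartiles of the arrays spanned 0.22 on the log2 scale, above the limit of 0.1 set for this step, so values were quantile normalized, floored at percentile 25 of all values (197) and taken to log2. Intensities printed per array are normalized values before the floor. Testing required values above the floor on at least 2 arrays, and no detection calls were used.

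Gene symbols came from the platform annotation, updated through the gene table of GRCm38.p6. It gave 1 symbol to 10833 of 12422 probe sets, several to 396 and none to 1193, and no member shared a probe set with another gene. limma 3.58.1 in R 4.3.3 fitted 4 group means to all 9 arrays with an intensity trend. Tests were two-sided and adjusted over 9686 probe sets, and the fit was tested on simulated data. Differences are log2 with standard errors (SE). The number of arrays limits the precision.

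The members and the lists were chosen with earlier results of these data known. Named genes were all member probe sets, Rb1, up to 4 called genes per list in the averaged genotype difference and up to 2 per list in each withdrawal comparison by smallest adjusted p, and the 2 most correlated genes per called member. The withdrawal values of Tmprss2, Ctsa, Ctsh, Tpp1, Psap, Atp6v0d1, Npc2, Lamp1 and Col18a1 in the line where the rule did not name them were added for comparison. Promoters came from RefSeq (GRCm38.p6). Alternatives covered normalization, floor, filter, variance model, a replicate block and each array left out. Other scalings of the named list genes and of the lists' withdrawal counts, and those counts without wild-type serum 1, were added after seeing the data.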

Additional observations from a re-analysis of the deposited data

Results flagged for a closer look

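For 3 of the named genes outside the 9, the interaction, withdrawal in the Rb-null line minus withdrawal in the wild-type line, passed the threshold. Tnc stood at -2.08 (SE 0.10, limma adjusted p = 1.48e-05), from a log2 difference of -2.08 in Rb-null cells and wild-type arrays that were all held at the floor. The wild-type response of Tnc was thus not measured, and its interaction only repeats the fall in Rb-null cells. The floored values have no spread, so this SE understates the error. Wfdc2 stood at -1.01 (SE 0.12, adjusted p = 0.00779), from -1.21 in Rb-null and -0.20 in wild-type cells, and passed without 5 of the 9 arrays left out in turn. Ctsh stood at -0.85 (SE 0.15, adjusted p = 0.0368), from -0.17 in Rb-null and 0.68 in wild-type cells, and passed without only 2 of the 9 arrays. No interaction of the 9 genes themselves passed.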

How the results depend on the processing

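Directions of all called member values held under the alternatives run, and most calls held too. With all probe sets tested and no filter, called members in Rb-null withdrawal numbered 2 instead of 4, as Timp1 (adjusted p = 0.0654) and Timp2 (0.109) were lost, and the Ctsd difference in serum-free medium missed the threshold (0.0505). The cause was not tested. The Timp2 difference in serum-free medium was also lost in the values as deposited (-0.55, adjusted p = 0.137), with arrays scaled to a common median (-0.59, 0.113), without the filter (0.137) and with the replicate block (0.0506). The Timp3 difference followed the floor, from 0.65 with the floor at percentile 40 to 2.45 at percentile 10. Interaction calls over all probe sets were 90, and 57 with the floor at percentile 10, 57 without the intensity trend and 51 with the replicate block. With 1 array left out in turn, called members ran from 7 to 9 in the averaged genotype difference, 5 to 9 in serum-free medium, 6 to 7 in serum, 3 to 5 in Rb-null withdrawal, 0 to 2 in wild-type withdrawal and 0 to 0 in the interaction. Over all probe sets the counts ran from 3012 to 6058, 1121 to 4964, 823 to 4370, 467 to 2257, 651 to 1943 and 6 to 245 in the same order, and without wild-type serum 1 they were 6058, 4964, 4370, 2257, 1943 and 245. Deviations of same-numbered arrays from their group means correlated at -0.23 to 0.33, over 0.1 for 2 of 12. These 2 were Rb-null serum-free with wild-type serum, at 0.33 and 0.30. In a group of 2 arrays the deviations mirror each other, so the 12 are not separate checks and cannot settle pairing. The labels do not say that the numbers mark a shared day or culture, so they were not taken as pairs. The replicate block changed no other call among members. Signals near the floor (Plau, wild-type Timp3) limit what can be read.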
